A study of Papio hamadryas with 14 samples.

Results

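The Wnt ligands, their Frizzled receptors and co-receptors, the secreted antagonists and the intracellular effectors were followed in baboon kidney through fetal life and into adulthood. The members were taken by gene symbol: symbols that start with WNT, FZD, DKK or SFRP and a digit, plus FRZB, LRP5, LRP6, LEF1, TCF7L1, TCF7L2, CTNNB1, APC, GSK3B, DVL1, DVL2 and DVL3. This gave 30 of the 9580 genes that had a probe set of their own among the deposited values. Each was read from its brightest probe set on average in the fetal samples. Of these, 23 passed the filter on low values (mean above the median of all probe sets, a signal of 178) and were tested among 5278 genes. The remaining 7, DKK2, FRZB, FZD3, FZD10, WNT2, WNT7B and WNT11, lay below it. AXIN1, AXIN2 and TCF7 were also looked for. They had no probe set of their own among the deposited values under the annotation used, so they were not analysed here.

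Wnt ligands are secreted glycoproteins that bind Frizzled receptors and, for the canonical branch, the co-receptors LRP5 and LRP6. Without a ligand, a destruction complex built on APC and the kinase GSK3B marks β-catenin (CTNNB1) for breakdown; with a ligand, Dishevelled proteins relay the signal, β-catenin accumulates and drives transcription with LEF1 and TCF partners. In the mouse kidney, Wnt signals from the ureteric bud induce nephron progenitors to form epithelium, and Wnt11 takes part in branching of the bud.

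The study hybridised total RNA of whole kidney of Papio hamadryas, with no treatment, to Affymetrix arrays. Fetal kidneys came from 4 gestational ages named by their day: 60dG with 2 samples, and 90dG, 125dG and 160dG with 3 samples apiece. Adult kidneys gave 3 samples, replicates 1 to 3, from ages given as 6, 12 and 7 years. The fetal arrays are labelled biological replicates, which gives no word on litters or sex. The probes are those of a human array design, so sequence differences between human and baboon can lower a probe set's signal, and levels were not set against one another between genes. The adult arrays are of another array type than all fetal arrays, so adult age and array type cannot be told apart. In whole kidney, fewer cells of a type and less RNA per cell cannot be told apart.

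Some arrays stood apart. The median signal of the adult arrays lay between 210.2 and 214.4, and that of the fetal arrays between 172.9 and 194.6. Each of the 10 kidney genes with a probe set, such as PAX8, LRP2 and SLC12A1, was above the filter. On 60dG replicate 2, 5 adrenal cortex genes summed to a signal of 7579, against 165.7 to 323.8 on the other 10 fetal arrays, with CYP17A1 at 4960. On adult replicate 3, 4 skeletal muscle genes summed to 7110, against 168.1 and 206.2 on the other adult arrays. Among the 90dG arrays the 3′ to 5′ ratio of GAPDH, a measure of RNA or labelling quality, was 1.78, 2.46 and 3.43, against 1.62 to 1.99 on the other fetal arrays. On 90dG replicate 1 the spike-in controls had a geometric mean of 942, against 1786 to 2823 on the other fetal arrays. Values without these arrays are given beside the members' main results.

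Between 60dG and 160dG, 7 of the 23 tested members differed: SFRP1, FZD5, SFRP4 and DKK3 rose and DKK1, LEF1 and FZD2 fell. Over all tested genes 11.6% were called in this comparison by limma (Benjamini-Hochberg adjusted p under 0.05), with 6.92% higher and 4.72% lower at 160dG. The median log2 difference of the tested members was -0.07, beside -0.01 over all tested genes. In the moderated F test over the 4 stages 9 members were called, against a background of 18.2%. In the linear trend over gestation, 7 were called (9.74% of all genes), 4 upward (SFRP1, SFRP4, FZD5 and FZD6; background 4.83%) and 3 downward (DKK1, LEF1 and FZD2; 4.91%).

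**Figure D1:**
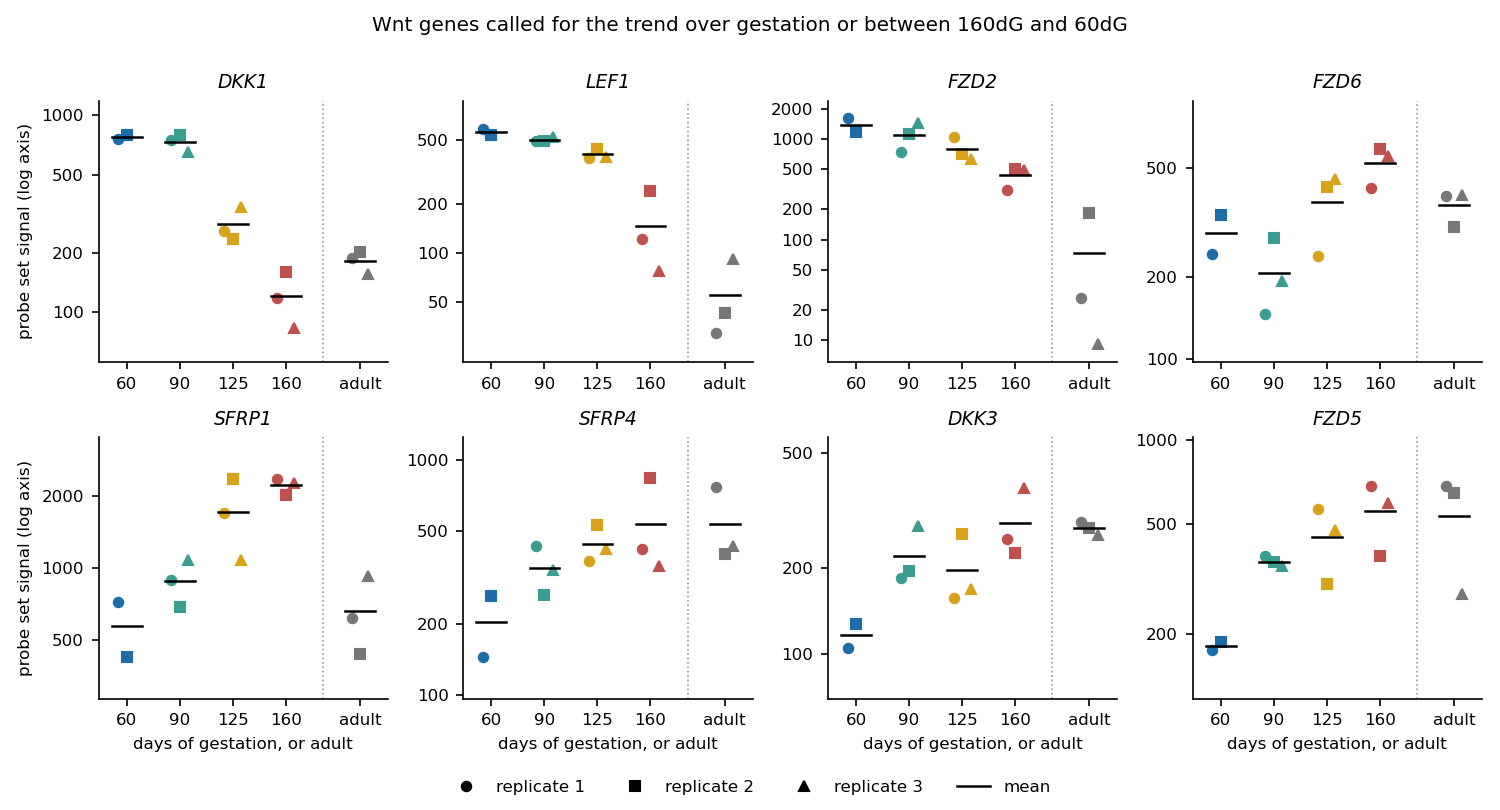
Signal (log axis) of 8 members on every array, by stage, with the adult arrays at the right; marker shapes give the replicate number and bars the group means. DKK1, LEF1 and FZD2 lie lower at 160dG than at 60dG, and SFRP1, SFRP4, DKK3, FZD5 and FZD6 lie higher. The 8 were drawn because each was called for the trend or for 160dG against 60dG.

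No ligand that could be tested was called. WNT5A, a ligand best known for signalling that does not pass through β-catenin, averaged 872 ± 223 at 160dG (SD, n = 3) and 945 ± 148 at 60dG (SD, n = 2), and its log2 difference of -0.14 had a 95% confidence interval of -0.65 to 0.38. WNT6 averaged 736 ± 55.9 at 160dG and 642 ± 172 at 60dG, a log2 difference of 0.22 with an interval of -0.27 to 0.70. Each interval includes 0. The other ligands with a probe set of their own were dim on the fetal arrays. WNT11, the ligand of the ureteric bud tip in mouse, read 5.6 to 51.8, WNT7B, a collecting duct ligand in mouse, read 4.2 to 41.6, and WNT2 read 15.9 to 119.8, all below the filter. Further Wnt ligands, WNT4 and WNT9B among them, had no such probe set and could not be read.

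Among the receptors, FZD2 fell and FZD5 rose, while the other Frizzled genes showed smaller or less regular differences. FZD2, a receptor for WNT5A among other ligands, had signals of 1598 and 1170 at 60dG, 745.3, 1123 and 1430 at 90dG, 1037, 712.3 and 638.3 at 125dG, and 309.9, 499 and 494.1 at 160dG. Every 160dG array lay below every array of the earlier stages. The log2 difference between 160dG and 60dG was -1.65 ± 0.29 (SE; limma adjusted p = 0.00231), and the slope was -0.16 ± 0.03 log2 units per 10 days (adjusted p = 0.00147). Without the 60dG array that carried adrenal transcripts the difference was -1.87 (adjusted p = 0.00953).

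FZD5, a receptor linked to epithelia, read 175.6 and 187.3 at 60dG, 381.7, 362.1 and 351.2 at 90dG, 562.8, 303.8 and 475.4 at 125dG, and 682.8, 381.7 and 594.5 at 160dG. Both 60dG arrays were below all later ones, and the later stages overlapped in part. The difference between 160dG and 60dG was 1.49 ± 0.27 (limma adjusted p = 0.00253), and it was 1.53 without 60dG replicate 2 (adjusted p = 0.0195). FZD5 was also called at the first step, 90dG against 60dG, with 0.95 ± 0.27 (adjusted p = 0.0424). That call held in 9 of 21 alternative settings, and not without either 60dG array (adjusted p = 0.214 without replicate 1 and 0.143 without replicate 2) or any single 90dG array (0.065 to 0.0865), nor without both 90dG replicates 2 and 3 (0.176) or with the GAPDH ratio as a covariate (0.0824).

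FZD6, a receptor of planar polarity signalling, read 242.2 and 335.9 at 60dG, 146, 277.2 and 193.1 at 90dG, 238.7, 425.3 and 457.2 at 125dG, and 421, 587.5 and 551.4 at 160dG. The 160dG arrays were above the 60dG and 90dG arrays. Its stages differed in the F test (limma adjusted p = 0.0216). The upward trend of 0.11 ± 0.03 per 10 days passed narrowly (adjusted p = 0.0475) and held in 5 of 21 alternative settings. The slope was 0.15 without 60dG replicate 2 (adjusted p = 0.0194), and leaving out any single 160dG array lost the call (0.0834 to 0.132). The difference between 160dG and 60dG, 0.82 ± 0.30, did not pass (adjusted p = 0.104). The F test lost FZD6 on leaving out 90dG replicate 3 (0.0623) and on leaving out replicate 2 or 3 of 160dG (0.0611 and 0.0561), and with the GAPDH ratio as a covariate (0.0564).

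FZD1 was highest at 90dG, where it read 1065, 1084 and 1242, against 882.6 and 634 at 60dG. It read 926.1, 893.7 and 697.5 at 125dG and 690.8, 559.7 and 690.3 at 160dG, so that the 90dG arrays lay above all others. The F test called it (limma adjusted p = 0.0309), but no single step did, and the call was lost without 90dG replicate 2 (adjusted p = 0.0724), 90dG replicate 3 (0.106) or 160dG replicate 2 (0.0742) and with the GAPDH ratio as a covariate (0.144). A second FZD1 probe set was not highest at 90dG: it read 240.8, 234.4 and 187.7 there, against 263.5 and 248.1 at 60dG.

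FZD4 and FZD7 were not called. FZD4, also a receptor for the non-Wnt ligand norrin, differed by 0.23 between 160dG and 60dG, with an interval of -0.15 to 0.60. FZD7 differed by -0.28, with an interval of -0.81 to 0.24. Below the filter, FZD10 read 171.5, 54.8 and 54.1 at 160dG, against 260 and 224.1 at 60dG, without overlap. With no filter on low values its trend of -0.14 per 10 days passed (limma adjusted p = 0.0339), while its difference between 160dG and 60dG, -1.40, did not (0.0536). FZD3 read 55.4 to 253.4 over all fetal arrays.

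The co-receptor LRP5 stood out at mid-gestation. It read 178.2 and 119.9 at 60dG, 413.7, 553.7 and 525.7 at 90dG, 242.3, 340.7 and 392.6 at 125dG, and 189.8, 261 and 136.3 at 160dG. The 90dG arrays were above all others, and the 160dG arrays overlapped the 60dG arrays. LRP5 rose at 90dG against 60dG by 1.65 ± 0.29 (limma adjusted p = 0.00473), and the linear trend, at -0.02, missed it. The difference was 1.39 without 60dG replicate 2 and no longer passed (adjusted p = 0.0521). With the GAPDH ratio as a covariate it was 1.56 (adjusted p = 0.0283). Without the 90dG replicates 2 and 3, which had the raised ratios, its adjusted p was 0.0929, and without 90dG replicate 1 the difference was 1.77 (adjusted p = 0.00446). LRP6, the other co-receptor, differed by -0.07 between 160dG and 60dG and was not called, and its second probe set gave -0.05.

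**Figure D2:**
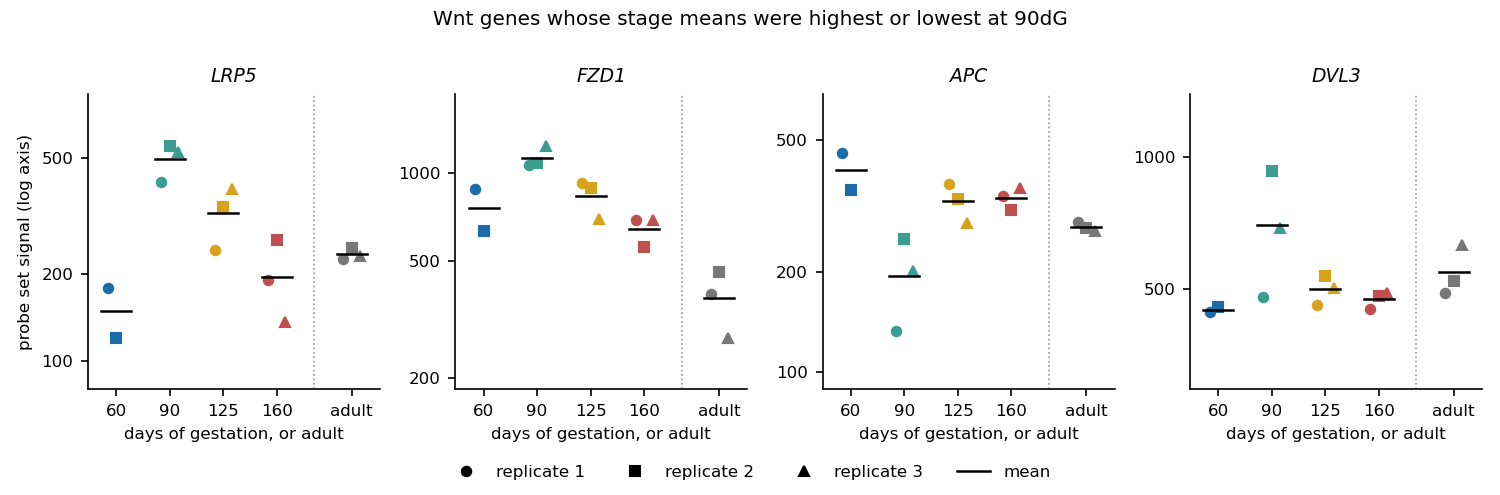
Signal (log axis) by stage on every array for LRP5, FZD1, APC and DVL3; bars are group means and marker shapes the replicate numbers. LRP5 and FZD1 are highest at 90dG, APC is lowest there, and for DVL3 the 90dG replicates spread from 480.1 to 928.2.

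At the step between 60dG and 90dG as a whole, 3 members were called, LRP5 and FZD5 upward (5.53% of all genes) and APC downward (3.58%), against 9.11% of all genes in either direction. The members' median difference here was 0.24, beside 0.04 over all tested genes. Leaving out 60dG replicate 2 left 1 array at that stage, which limits any call. The differences were then 1.39 for LRP5, 0.99 for FZD5 and -1.21 for APC.

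The secreted antagonists moved in opposite directions. DKK1, which blocks LRP5 and LRP6, fell in steps: it read 763.1 and 792.9 at 60dG, 751, 792.8 and 652.6 at 90dG, 259.3, 233.7 and 342.5 at 125dG, and 118.3, 160 and 83.2 at 160dG. The 60dG and 90dG arrays overlapped, and each later stage lay wholly below the one before it. The difference between 160dG and 60dG was -2.58 ± 0.24 (limma adjusted p = 1.96e-05), and leaving out 60dG replicate 2 gave -2.55 (adjusted p = 0.000463). DKK1 was the member called at 125dG against 90dG, with -1.36 ± 0.22 (adjusted p = 0.01), where 5.17% of all genes were called, 2.56% higher and 2.61% lower. This step was lost when 90dG replicates 2 and 3 were both left out (adjusted p = 0.0835).

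DKK1 was also called at the last step, 160dG against 125dG, with -1.13 ± 0.22 (limma adjusted p = 0.046). At that step 0.322% of all genes were called, 0.0758% higher and 0.246% lower, and LEF1 was the other member among them. DKK1 kept this call in 4 of 21 alternative settings, and LEF1 kept it in 6 of 21. Every fit that left out 1 array lost both calls, except the fit without 160dG replicate 2. The 60dG arrays do not enter this difference, and without either of them it stayed at -1.13 for DKK1 and -1.50 for LEF1.

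SFRP1, a secreted decoy that binds Wnt proteins, rose. It read 718.5 and 426.1 at 60dG, 888.5, 687.9 and 1085 at 90dG, 1698, 2362 and 1079 at 125dG, and 2357, 2034 and 2278 at 160dG. The 160dG arrays lay above every 60dG and 90dG array and overlapped those of 125dG. The difference between 160dG and 60dG was 1.97 ± 0.30 (limma adjusted p = 0.000577), and it was 1.61 without 60dG replicate 2 (adjusted p = 0.0146).

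The other SFRP1 probe sets gave the same overall change and a different course. One read 241.6 and 174.4 at 60dG, 175.4, 132.8 and 157.4 at 90dG, 681.9, 1014 and 501.7 at 125dG, and 661.6, 866.9 and 1043 at 160dG. Its 60dG and 90dG arrays were all low and its 125dG and 160dG arrays all high. In the fit over all probe sets it differed by 2.08 ± 0.25 between 125dG and 90dG (limma adjusted p = 0.00339), and the remaining SFRP1 probe set differed by 1.68 ± 0.31 (adjusted p = 0.0107). The probe set used for SFRP1 differed by 0.89 ± 0.27 at that step in the same fit and did not pass (adjusted p = 0.0618). Between 160dG and 60dG these other probe sets differed by 1.96 ± 0.28 and 2.27 ± 0.34.

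SFRP4, a related decoy, read 144.1 and 263.3 at 60dG, 430, 264.9 and 341.7 at 90dG, 371.1, 528.6 and 419.3 at 125dG, and 417.9, 838.2 and 352.5 at 160dG. Both 60dG arrays were below all others, although 60dG replicate 2 and 90dG replicate 2 nearly met. SFRP4 differed between 160dG and 60dG by 1.28 ± 0.34 (limma adjusted p = 0.0249). It was lost without 60dG replicate 1 (adjusted p = 0.282) and without 160dG replicate 2 (adjusted p = 0.0729), and it was 1.69 without 60dG replicate 2 (adjusted p = 0.0248). The trend of 0.12 ± 0.03 per 10 days (adjusted p = 0.0324) was lost without 160dG replicate 2 (adjusted p = 0.112) and on leaving out either 60dG array (0.128 without replicate 1 and 0.0521 without replicate 2). A second SFRP4 probe set differed by 1.25 ± 0.38 (adjusted p = 0.0522).

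DKK3, a member of the Dickkopf family by sequence whose part in Wnt signalling is less settled, read 105.3 and 127.8 at 60dG, 184.6, 194.2 and 278.2 at 90dG, 157.1, 260.6 and 169 at 125dG, and 250.8, 224.9 and 378.1 at 160dG. Both 60dG arrays were below all later ones on this probe set. The other DKK3 probe sets, all below the filter, overlapped between 60dG and 160dG. They read 9.1 to 59.8, 26.2 to 50.3 and 31.2 to 54 at 60dG. At 160dG they read 59.7 to 76.2, 35.2 to 86.6 and 47 to 120.3. DKK3 differed between 160dG and 60dG by 1.15 ± 0.30 (limma adjusted p = 0.0207), and it was lost without 60dG replicate 1 (adjusted p = 0.162), without 60dG replicate 2 (adjusted p = 0.0662) and without 160dG replicate 3 (adjusted p = 0.0841). Of the antagonists below the filter, FRZB, a decoy also known as a cartilage protein, read 288.6, 184.3 and 199.1 at 160dG, against 91 and 173.9 at 60dG, and DKK2 read 15 to 197.5 over all fetal arrays.

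**Figure D3:**
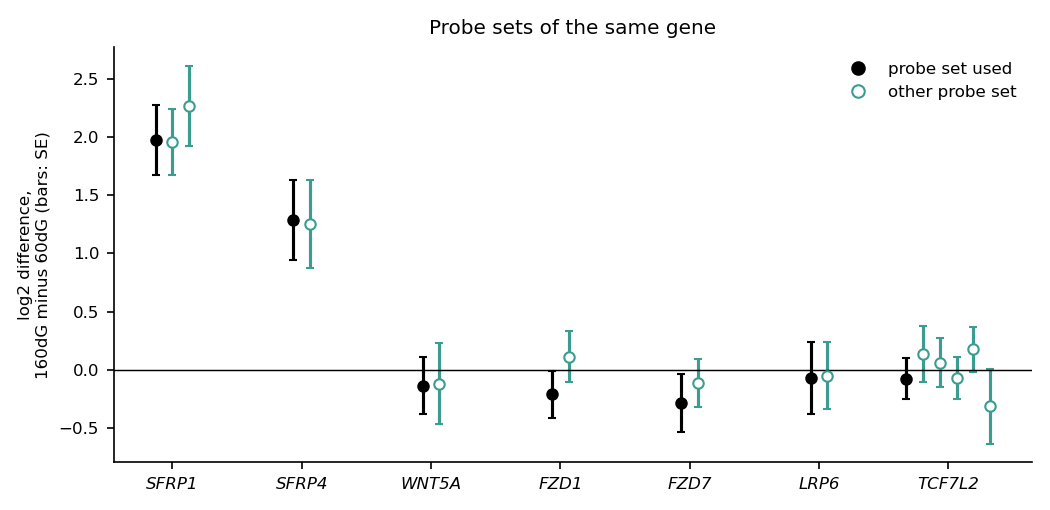
Log2 difference between 160dG and 60dG, with SE bars, for each probe set of SFRP1, SFRP4, WNT5A, FZD1, FZD7, LRP6 and TCF7L2; black points mark the probe set used for the gene and green open points its other probe sets. The probe sets of SFRP1 and SFRP4 all lie above 0, at 1.25 to 2.27, and those of the other genes shown lie near 0.

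Inside the cell, most components showed no called difference. The Dishevelled genes DVL1, DVL2 and DVL3 differed by 0.37, 0.03 and 0.08 between 160dG and 60dG. For DVL3 the 90dG arrays read 480.1, 928.2 and 689.4, against 441.9 and 454.3 at 60dG. GSK3B differed by -0.48, with a wide interval of -1.42 to 0.46. CTNNB1 differed by -0.11, with an interval of -0.50 to 0.27.

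APC was low at one stage. It read 457.1 and 353.1 at 60dG, 132.8, 251.4 and 201.2 at 90dG, 368.7, 331.3 and 281.2 at 125dG, and 339.2, 307.1 and 357.3 at 160dG. The 90dG arrays were below all other fetal arrays. APC fell at 90dG against 60dG by 1.03 on the log2 scale (SE 0.25, limma adjusted p = 0.0222). Without 60dG replicate 2 the difference was -1.21 and did not pass (adjusted p = 0.0566), nor did it without 60dG replicate 1 (0.2). Without 90dG replicates 2 and 3 it was -1.49 (adjusted p = 0.0286), with the GAPDH ratio as a covariate it was -1.30 (adjusted p = 0.0234), and without 90dG replicate 1 it was -0.79 (adjusted p = 0.0374). A second APC probe set, below the filter, was lowest at 90dG too, at 54.1, 102.3 and 118.1, against 216.8 and 182.7 at 60dG. The remaining APC probe set, of a kind marked for possible cross-hybridisation, read 134.6, 146.8 and 78.2 at 90dG, against 81.7 and 64.1 at 60dG.

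Of the transcription factors, LEF1 fell and the TCF genes were not called. LEF1, a nuclear partner of β-catenin and itself a known Wnt target, read 579.8 and 532.6 at 60dG, 489.2, 494.2 and 516.8 at 90dG, 388.4, 441 and 391.9 at 125dG, and 122.3, 241.6 and 77.8 at 160dG. No array of any fetal stage overlapped the stage before it. The difference between 160dG and 60dG was -1.94 ± 0.31 (limma adjusted p = 0.000919), and -1.99 without 60dG replicate 2 (adjusted p = 0.00998). Much of it lay in the last step, 160dG against 125dG, at -1.50 ± 0.28 (adjusted p = 0.0367). A second LEF1 probe set, below the filter, read 142.9, 133.6 and 68.7 at 160dG, against 173.3 and 267.4 at 60dG. TCF7L1 differed by -0.38, with an interval of -0.83 to 0.06. TCF7L2 differed by -0.08, and its 5 other probe sets by -0.31 to 0.17.

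**Figure D4:**
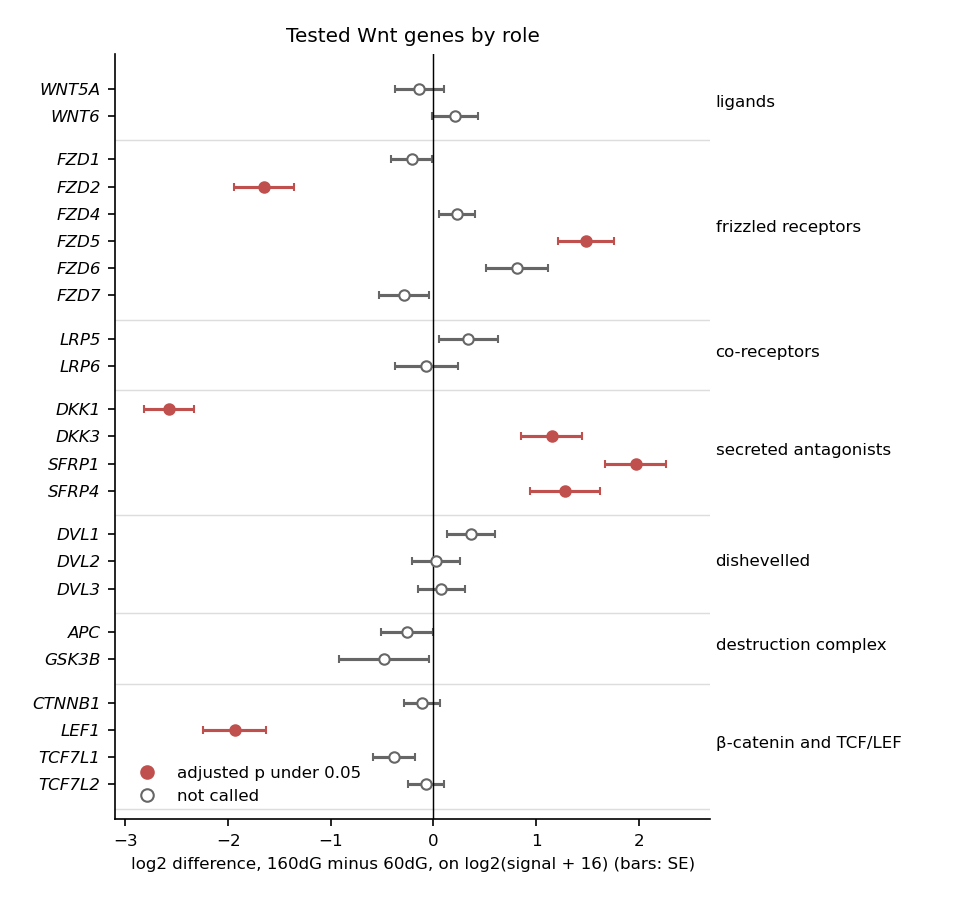
Log2 difference between 160dG and 60dG, with SE bars, for the 23 tested members grouped by role; filled red points passed at a limma adjusted p under 0.05. The 7 called members are the antagonists DKK1, SFRP1, SFRP4 and DKK3, the receptors FZD2 and FZD5, and LEF1.

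The wider pathway was read from a list of 80 further Wnt genes, 50 with a probe set and 42 tested. Between 160dG and 60dG, 1 rose and 3 fell, beside 6.92% higher and 4.72% lower over all tested genes, so that the count called was near the background. WIF1, another secreted Wnt inhibitor, read 532.3, 484.8 and 492.8 at 160dG, against 273.2 and 257.4 at 60dG, a difference of 0.88 ± 0.25 (limma adjusted p = 0.0348). The R-spondin receptor LGR5, which amplifies Wnt signals, read 177.4, 329.2 and 185.3 at 160dG, against 555.5 and 437.9 at 60dG, a difference of -1.10 ± 0.25 (adjusted p = 0.0114). The glypican GPC3 (-0.94 ± 0.28, adjusted p = 0.0444) and the chromatin remodeller SMARCA4 (-0.83 ± 0.22, adjusted p = 0.0271) also fell. Of the 4 other SMARCA4 probe sets, 1 passed (-0.65, adjusted p = 0.0275) and 3 did not (-0.53, -0.44 and -0.30). In the linear trend none rose and 4 fell: LGR5, GPC3, the agrin receptor LRP4 (-0.10 ± 0.03 per 10 days, adjusted p = 0.0399) and the β-catenin cofactor BCL9 (-0.09 ± 0.02, adjusted p = 0.0348). GPC3 kept its trend call in 6 of 22 alternative settings, LRP4 in 13 of 21, BCL9 in 16 of 22 and LGR5 in 16 of 21. Without 60dG replicate 2 the slopes of LRP4 and LGR5 were -0.10 each, and neither was called. The 60dG arrays weighed on these calls: without 60dG replicate 2 WIF1 differed by 0.84 and did not pass (adjusted p = 0.161), nor did GPC3 (0.0893) or SMARCA4 (0.0944), while LGR5 passed (0.0336) and was lost without 60dG replicate 1 (0.14). For 160dG against 60dG, WIF1 kept its call in 16 of 22 alternative settings and GPC3 in 9 of 22. Leaving out any single 60dG or 160dG array lost WIF1. The list's median difference was -0.06, beside -0.01 over all tested genes.

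Known Wnt target genes did not move one way. Of 13 tested targets, 2 rose between 60dG and 160dG (JUN and VEGFA) and 3 fell (LEF1, LGR5 and SOX9), 2 of which are also counted above, with a median difference of -0.23. Over all tested genes 6.92% were higher and 4.72% lower. SOX9 differed by -1.51 ± 0.25 (limma adjusted p = 0.00144), and by -1.76 without 60dG replicate 2 (adjusted p = 0.00459), while its second probe set differed by 0.10. JUN differed by 0.81 ± 0.19 (adjusted p = 0.0131) and VEGFA by 0.59 ± 0.18 (adjusted p = 0.0442). JUN kept its call in 20 of 22 alternative settings and VEGFA in 11 of 22. In the fit over all probe sets, a second JUN probe set differed by 0.46 and did not pass (limma adjusted p = 0.425). The other VEGFA probe sets differed by 0.50 to 0.96 and did not pass either (0.0666 to 0.227). Leaving out either 60dG array, which leaves 1 at that stage, lost JUN, at 0.82 without replicate 1 and 0.81 without replicate 2. VEGFA differed by 0.37 without 60dG replicate 2 and was not called. It was also lost without 160dG replicate 1 (0.138) or 3 (0.108).

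Markers of some cell types had several called genes over the same stages, and those of others had few or none. All 9 tested cell cycle genes fell between 60dG and 160dG, and the 14 genes with a probe set summed to 1081 to 2187 at 160dG, against 7211 to 7724 at 60dG. Of 4 tested nephron progenitor genes 2 fell, EYA1 and SALL1, with sums of 2034 to 2356 at 160dG, against 3505 to 3562 at 60dG. Of 12 tested stromal genes 2 rose and 3 fell, with sums of 34597 to 38210 at 160dG, against 41379 to 46036 at 60dG. Of 7 tested proximal tubule genes 6 rose, with sums of 7705 to 17332 at 160dG, against 2516 to 2818 at 60dG. Both tested cartilage genes fell, with sums of 318.5 to 481.9 at 160dG, against 1582 to 1605 at 60dG. Of 9 tested ureteric bud and collecting duct genes 1 fell and none rose, and of 5 tested podocyte genes 1 rose and none fell. None of 6 tested endothelial genes was called, with sums of 3083 to 3135 at 160dG, against 2016 to 2183 at 60dG. The 1 tested leukocyte gene was not called. Over all tested genes 6.92% were higher and 4.72% lower at 160dG. No listed gene was at a signal of 0 on a fetal array. The part of these cell types in the changes of DKK1, LEF1, FZD2, SFRP1 and the other members was not tested.

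Between adulthood and 160dG, 4 tested members were at least 2-fold lower in adults with no overlap between the groups, and none was that much higher. Leaving out 160dG replicate 3 gave 5 lower and 1 higher. Over all tested genes 13% were that much lower and 4.64% that much higher, and no test was made, since the array types differ. WNT5A read 139.2, 140.9 and 130.2 in adults, against 847.7, 1106 and 662.6 at 160dG, a log2 difference of -2.51, and -2.48 without adult replicate 3, which held muscle transcripts. FZD7 read 232.4, 213 and 177.5 in adults, against 753.6, 859.5 and 1289 at 160dG, a difference of -2.11, and -2.01 without adult replicate 3. The adult arrays were tightly grouped and far below the 160dG arrays for both. The count of 4 rests on 1 probe set per gene. TCF7L2 averaged 1472 in adults and 1809 at 160dG, with overlap, while its other probe sets were lower in adults without overlap. Among these, means of 67.3, 221 and 196 in adults stood against 264, 575 and 646 at 160dG.

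FZD2 read 26.5, 185.5 and 9.1 in adults, against 309.9, 499 and 494.1 at 160dG, with adult replicate 2 well above the other adult arrays. Its log2 difference was -2.88, -3.75 without adult replicate 2 and -2.25 without adult replicate 3. Signals of 26.5 and 9.1 lie near the added 16, and with no detection calls among the values used they are not shown to be above background, so these FZD2 differences depend on that added value. SFRP1 read 616.1, 437.1 and 925.6 in adults, against 2357, 2034 and 2278 at 160dG, a difference of -1.79, or -2.06 without adult replicate 3, so that the adult arrays were back near the 60dG values of 718.5 and 426.1. LEF1 read 32.2, 43 and 92 in adults, which overlapped 122.3, 241.6 and 77.8 at 160dG. Renal stroma markers summed to 8972 to 12728 in adults, against 34597 to 38210 at 160dG. Podocyte markers were lower too, at 1146 to 1438 in adults, against 3083 to 5489 at 160dG. Proximal tubule markers were higher, at 18424 to 19794 in adults, against 7705 to 17332 at 160dG. The part of these cell types in the members' adult differences was not tested.

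A few members were higher in adults. FZD4 read 1850, 1786 and 2028 in adults, against a range of 916.9 to 1248 at 160dG, and WNT6 read 1336, 1015 and 1222 in adults, against 685.9, 796.2 and 725.7 at 160dG, both under 2-fold. GSK3B read 410.1, 478.2 and 405.8 in adults, against 130.9, 266.3 and 328 at 160dG, and CTNNB1 read 1474, 1539 and 1470 in adults, against 1097, 906.9 and 1232 at 160dG, again under 2-fold and without overlap. Below the filter, FRZB read 678.3, 705.5 and 633.2 in adults, against 288.6, 184.3 and 199.1 at 160dG. WNT7B read 80.7, 196.1 and 126.7 in adults, against 4.2 to 13.7 at 160dG. Scaling all arrays to 1 median moved the median adult difference of all genes to -0.29 from -0.13, and the count of 4 became 5.

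**Figure D5:**
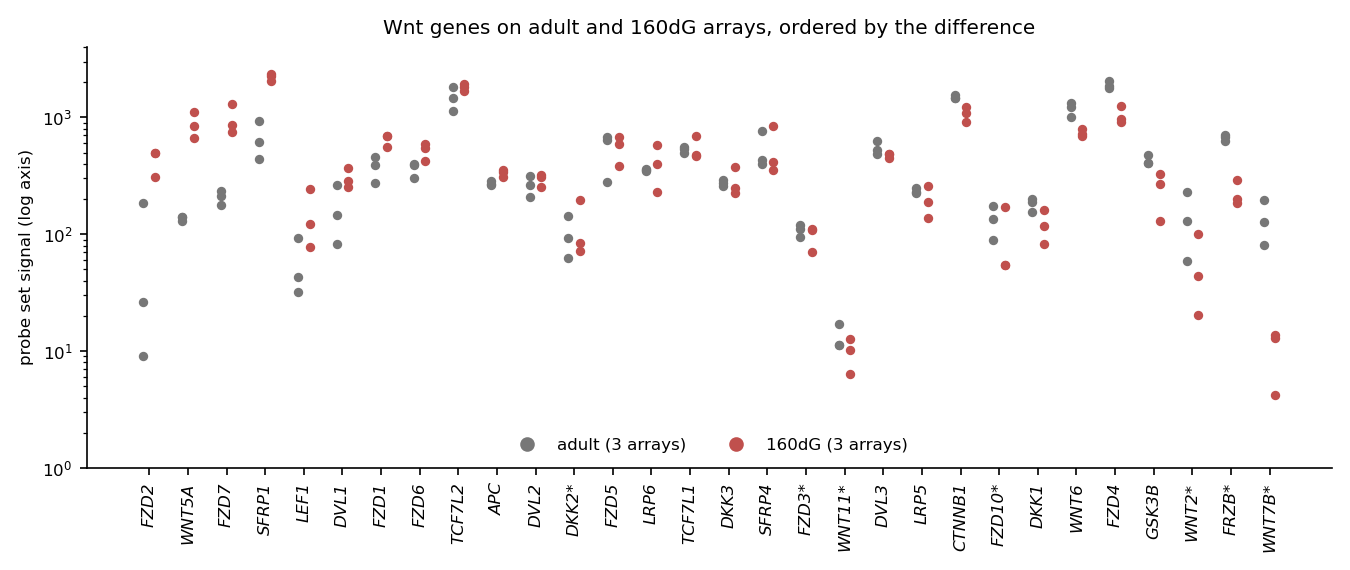
Signal (log axis) of all 30 members on the adult arrays (grey, left) and the 160dG arrays (red, right), ordered by their log2 difference; asterisks mark the 7 members below the filter. FZD2, WNT5A, FZD7 and SFRP1 are lower in adults without overlap, and WNT7B and FRZB are higher.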

How the data were processed

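Whole-kidney RNA of 11 fetal and 3 adult samples was measured on 1-colour Affymetrix arrays. The deposited intensity of each probe set is linear, and GCOS is the tool that the submitters' processing notes name. Its algorithm and any scaling by the authors are unknown here. Fetal and adult arrays were deposited as separate tables of different array types. Values were taken as log2(signal + 16) without further scaling. Of 16186 probe sets, 43 controls were left out, 14068 had 1 gene symbol in GEO's platform annotation, 735 had several and 1340 had none. Each gene was read from the probe set with the highest fetal mean, which was kept when this exceeded the median of all probe sets (log2 7.60).

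Under R 4.3.3, limma 3.58.1 fitted all 11 fetal arrays together (lmFit, then eBayes with an intensity trend) and gave the F test, linear trend and 4 differences between stages, with Benjamini-Hochberg adjustment over 5278 genes at 0.05. The fit was tested on simulated data. Adult and 160dG arrays were compared without a test. The number of arrays limits the precision, and p-values measure the spread between samples labelled biological replicates. Replicate numbers pair no samples. Other probe sets were read from a fit over all probe sets above the same filter. Those below it are given as signals where named.

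Members called in any test are given with the value on every array, other tested members with differences or means, and members below the filter with ranges; genes of the wider Wnt and target lists are named where called in the trend or between 160dG and 60dG, and marker lists are given by counts and sums. The members and gene lists were chosen with earlier results of these data known. Alternatives were the pseudocount, filter, scaling, moderation, array weights, replicate block, all probe sets, a GAPDH covariate and leaving out arrays. Figures were drawn with matplotlib 3.10.9.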

Additional observations from a re-analysis of the deposited data

How the results depend on the processing

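The changes of DKK1, LEF1, FZD2 and SFRP1 between 160dG and 60dG, and their trends and F tests, passed in every alternative in which they were tested, and those of FZD5 passed in 21 of 21 for the difference and the trend. The number of called members was 9 in the F test, 7 in the trend, 7 for 160dG against 60dG, 3 for 90dG against 60dG, 1 for 125dG against 90dG and 2 for 160dG against 125dG. Over all genes these counts were 960, 514, 614, 481, 273 and 17. With the filter at the upper quartile, 11 members were tested and the counts were 3, 2, 2, 0, 0 and 0. Over all genes they were then 688, 389, 426, 355, 233 and 6. The count of members for 160dG against 125dG was 1 with a pseudocount of 64 (15 over all genes). It was also 1 with all probe sets adjusted together (18 over all probe sets). It was 0 without a filter (12 over all genes) and without the intensity trend in eBayes (7). It was 0 too with the replicate block (5), with the GAPDH covariate (12) and without the 90dG group (6). For 125dG against 90dG it was 2 with array weights and 2 with the replicate block, and 0 without 90dG replicates 2 and 3, while the count over all genes was 481, 198 and 32 in these settings and 273 in the reported fit. Without the 90dG group the F test called 5 (459 over all genes, against 960), and without 90dG replicates 2 and 3 the difference of 90dG from 60dG called 1 (94 over all genes, against 481). Leaving out 1 array at a time gave 6 to 10 in the F test, 5 to 7 in the trend, 5 to 7 for 160dG against 60dG, 0 to 3 for 90dG against 60dG (0 without 60dG replicate 2), 1 to 2 for 125dG against 90dG, 0 to 2 for 160dG against 125dG and 4 to 6 for the adult count (4 to 5 lower in adults, and 1 higher when 160dG replicate 3 was left out). Over all genes, leaving out 1 fetal array put the count for 160dG against 125dG between 0 and 21. Fits without a 60dG array keep 1 array at that stage, which limits calls over all genes as well. The causes were not tested. Samples with the same replicate number did not deviate together (correlations of -0.11 to 0.18), so the numbers give no pairing, and with the replicate block the F test lost APC (adjusted p = 0.0578). Leaving out arrays in the adult comparison, and the alternatives for single list genes, were chosen after seeing the data. The 2 arrays at 60dG limit the comparisons with that stage, and the scaling of the deposited signals is unknown.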
